A study of Mus musculus with 7 samples.

Results

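The insulin-like growth factor (IGF) system is described here through 10 genes that were listed by symbol: the ligand genes Igf1 and Igf2, the receptor gene Igf1r, and the binding protein genes Igfbp1 to Igfbp7. All 10 were found by symbol among the 24964 genes of the table. They were measured by RNA sequencing of the whole uterus of mice aged 12 weeks, all labelled as being in diestrus, the quiet stage of the estrous cycle. The 3 control libraries carry the genotype Pgrcre/+, in which Cre recombinase is expressed from the progesterone receptor locus, and are numbered 1, 2 and 4. The remaining 4 libraries are labelled Pgrcre/+Foxl2LsL/+, that is, the same Cre allele with 1 allele named Foxl2LsL, and are numbered 1 to 4. They are called Foxl2LsL-labelled libraries below. The Cre allele is thus shared by all 7 libraries, and no library without Cre was compared. FOXL2, the forkhead factor whose overexpression the series title names, is not itself an IGF gene.

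IGF-I and IGF-II are secreted peptides that bind the IGF-I receptor, a tyrosine kinase that acts through IRS adaptors, PI3K and AKT on growth and survival. The high-affinity binding proteins, IGFBP-1 to IGFBP-6, hold the ligands in the extracellular space and release them when cut by proteases such as PAPP-A, whereas IGFBP-7 is a related protein with low affinity for IGFs. In the mouse uterus, Igf1 is known as an estrogen-induced product of the stroma that acts on the epithelium, and Igfbp1 as a marker of decidual cells in other species.

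Recovered sequencing depth was 47800000 to 67300000 fragments per library, and 30 to 61230 fragments lay on each member other than Igfbp1 in each library, so that counting error was small beside the spread between replicates for most members. Foxl2 itself was at 11.1 to 19.3 FPKM (fragments per kilobase of gene, scaled to sequencing depth) in controls and at 12.7 to 17.2 FPKM in the Foxl2LsL-labelled libraries. Its log2 difference was 0.06 (SE 0.18; limma, Benjamini-Hochberg adjusted p 0.818), so the table shows no rise of Foxl2, and each direction below is that of the labels as they stand. Transcripts of cell types found in the uterus were present in every library. Pgr was at 23.8 to 39.0 FPKM and Myh11 of smooth muscle at 81.0 to 229 FPKM. Krt18 of simple epithelium was at 92.9 to 242 FPKM. Foxa2 of glands was at 4.565 to 6.571 FPKM in controls and at 1.178 to 1.604 FPKM in the other group. Prss28 and Prss29, also listed as gland markers, stayed at or below 0.106 and 0.168 FPKM in each library. Ovgp1, an oviduct product, was at 291 FPKM in control 2 and at 1.65 to 19.7 FPKM in the other libraries.

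The receptor gene and 1 ligand gene were higher in the Foxl2LsL-labelled libraries, and 4 of the 7 binding protein genes were lower. Of the 10 members, 2 rose (Igf2 and Igf1r), 4 fell (Igfbp2, Igfbp4, Igfbp6 and Igfbp7) and 4 did not pass the test (Igf1, Igfbp1, Igfbp3 and Igfbp5). The test was limma on log2(FPKM + 1) over 13335 genes with a Benjamini-Hochberg adjusted p under 0.05, which 40.6% of all tested genes passed, 16.7% as higher and 23.9% as lower. A call is therefore common in this comparison, and the sizes below carry more information than the count. The median log2 fold change was -0.27 over the 10 members and -0.05 over all tested genes, and the median of its size without sign was 0.72 and 0.27. The groups did not overlap for 7 of 10 members, beside 47.6% of all tested genes; these are the 6 members past the threshold and Igfbp1, which is at the limit of detection and was tested below the filter on low values. In whole tissue, fewer cells of a type and less RNA per cell cannot be told apart.

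**Figure D1:**
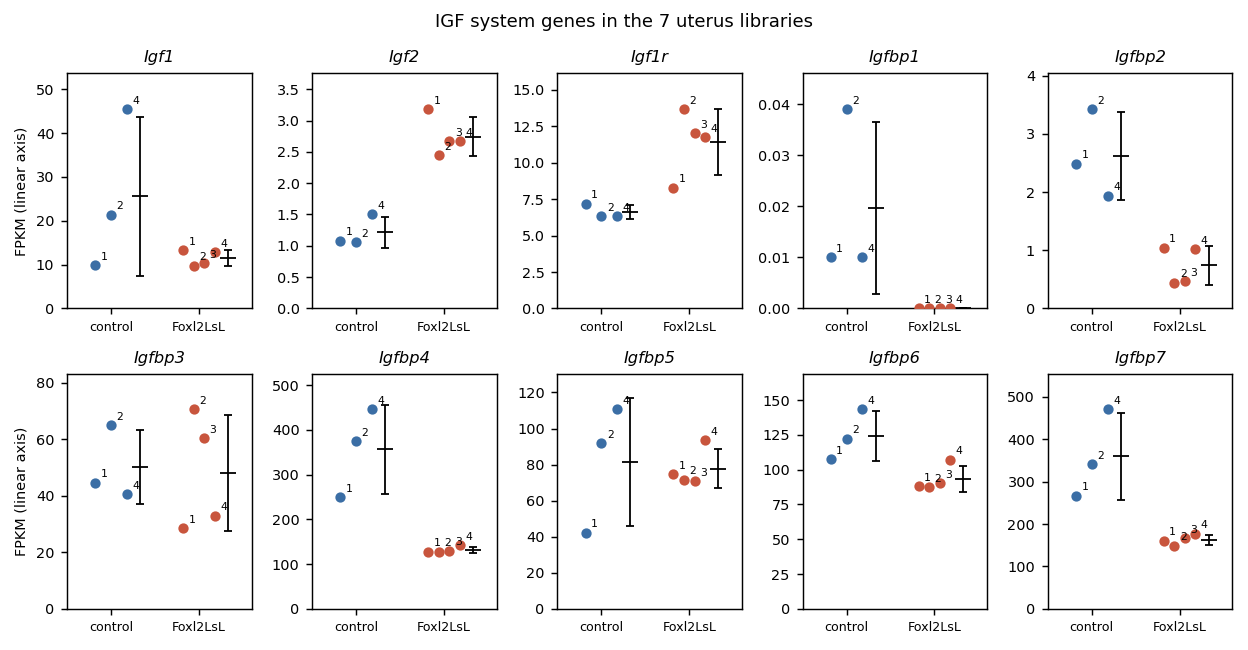
FPKM of each of the 10 genes in the 3 control and 4 Foxl2LsL-labelled libraries; each panel has its own linear axis from 0, numbers are the replicate numbers of the labels, and the bar beside the points is the mean ± SD. Igf2 and Igf1r lie higher, and Igfbp2, Igfbp4, Igfbp6 and Igfbp7 lower, in the Foxl2LsL-labelled libraries without overlap, while Igf1 and Igfbp5 spread widely over the controls.

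Igf1, on chromosome 10 (87858265 to 87937042, plus strand; positions are GRCm38 from GENCODE M21), encodes the main IGF ligand of the adult uterus. It stood at 9.90, 21.3 and 45.5 FPKM in controls 1, 2 and 4. In the Foxl2LsL-labelled libraries 1 to 4 it was at 13.3, 9.79, 10.3 and 12.8 FPKM. The controls differed widely among themselves and the lowest of them lay inside the range of the other group, which was narrow. Mean levels came to 25.6 ± 18.2 (SD, n = 3) against 11.5 ± 1.76 FPKM (SD, n = 4), with a log2 difference of -0.85 (SE 0.42, 95% interval -1.83 to 0.13; limma, Benjamini-Hochberg adjusted p 0.142; two-sided exact permutation p 0.229). This value rests on single controls. Without control 1 it was -1.37 (adjusted p 0.0106, limma, Benjamini-Hochberg), and without control 4 it was -0.33 (adjusted p 0.367).

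Stromal markers are given beside the spread of Igf1 over the controls. Their levels ran in the order of Igf1, lowest in control 1 and highest in control 4, for 6 of 8 markers. The exceptions were Dcn, at 400.0, 467 and 367 FPKM in controls 1, 2 and 4, and Pdgfrb, at 16.9, 26.4 and 20.9 FPKM. Pdgfra, a receptor gene of fibroblasts, was at 9.39, 16.8 and 38.3 FPKM in controls 1, 2 and 4 and at 12.6, 16.8, 15.7 and 14.6 FPKM in the Foxl2LsL-labelled libraries 1 to 4. The summed level of the 8 stromal markers ranged from 1378 to 2583 FPKM in controls, lowest in control 1 and highest in control 4, and from 1896 to 2220 FPKM in the other group. Past the threshold 1 of these markers was higher (Dcn) and 2 were lower (Pdgfrb and Vim), a share of 37.5% beside 40.6% of all tested genes. None of the markers was at 0. The part of stromal content in the level of Igf1 was not tested. On the opposite strand Igf1 is overlapped by the antisense gene Igf1os over 5117 bases, and the use of strand in counting is not given in the sources used here.

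Igf2, the second ligand gene, lies on chromosome 7 (142650766 to 142666816, minus strand) and is imprinted together with its neighbour H19. Its level was low in all libraries: 1.083, 1.057 and 1.504 FPKM in controls 1, 2 and 4, and 3.18, 2.45, 2.67 and 2.67 FPKM in Foxl2LsL-labelled libraries 1 to 4. Every Foxl2LsL-labelled library lay above every control. The mean rose from 1.21 ± 0.251 (SD, n = 3) to 2.74 ± 0.312 FPKM (SD, n = 4), a ratio of 2.26, and on the log2 scale the difference came to 0.76 (SE 0.11; Benjamini-Hochberg adjusted p 0.00213 in limma; two-sided exact permutation p 0.0571, the smallest that 35 splits allow). Between 311 and 944 fragments lay on Igf2 in each library. The call held under all 19 alternatives, with a log2 difference of 0.70 to 1.21.

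The noncoding RNA gene H19 was at 2.42 to 3.26 FPKM in controls and at 3.48 to 5.39 FPKM in the other group, and it too passed the threshold (log2 difference 0.50; limma, Benjamini-Hochberg adjusted p 0.0288). That call was lost in 7 of the 18 alternatives in which H19 was tested. Igf2os, an antisense gene that overlaps Igf2 by 7124 bases, was at 0.013 to 0.026 FPKM in controls and at 0.044 to 0.062 FPKM in the other group, and lay below the filter on low values. Gm49394, a protein-coding gene on the same strand as Igf2, overlaps Igf2 by 16048 bases and has no values here. Annotation and use of strand in counting are unknown, and the effect of these overlaps on the level of Igf2 was not tested. Igf2bp2, which encodes an IGF2 mRNA-binding protein, was higher by 0.83 on the log2 scale (limma, Benjamini-Hochberg adjusted p 0.0417), a call that 9 of 19 alternatives lost; without control 4 the difference was 0.51. The related Igf2bp1 and Igf2bp3 stayed at or below 0.534 FPKM in each library.

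The composition of the ligand transcripts differed between the groups. Igf2 made up 3.20% to 9.86% of the summed Igf1 and Igf2 FPKM in controls and 17.2% to 20.6% in the Foxl2LsL-labelled libraries. The ratio of Igf1 to Igf2 was 9.14, 20.2 and 30.2 in controls 1, 2 and 4, and 3.86 to 4.80 in the other group. The summed ligand level itself overlapped, at 10.98 to 46.97 FPKM and at 12.24 to 16.45 FPKM.

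Igf1r encodes the receptor through which both ligands act and spans 280.84 kb of chromosome 7 (67952827 to 68233668, plus strand). It was at 7.20, 6.34 and 6.33 FPKM in controls 1, 2 and 4. The Foxl2LsL-labelled libraries 1 to 4 had 8.28, 13.7, 12.0 and 11.8 FPKM, so that library 1 lay closest to the controls and the groups did not overlap. The mean rose from 6.62 ± 0.499 (SD, n = 3) to 11.4 ± 2.27 FPKM (SD, n = 4), with a log2 difference of 0.69 (SE 0.15, 95% interval 0.34 to 1.04; limma, Benjamini-Hochberg adjusted p 0.00949; two-sided exact permutation p 0.0571). With the replicate number as a block the adjusted p was 0.0636, and under the other 18 alternatives the call held.

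The 250 bases before the RefSeq start of Igf1r (chr7:67952007-67952256, GRCm38.p6, plus strand) are printed 5′ to 3′ because this is the receptor gene that rose. The window is of the CpG island type, with 77.6% G or C and 42 CpG dinucleotides, where the median over 32851 such windows is 52.4% and 6. Capitals mark the letters GGGCGG of a GC box on either strand, at 43 and 26 bases before the start. The window lies upstream of the first GENCODE base of the gene.
Igf1r: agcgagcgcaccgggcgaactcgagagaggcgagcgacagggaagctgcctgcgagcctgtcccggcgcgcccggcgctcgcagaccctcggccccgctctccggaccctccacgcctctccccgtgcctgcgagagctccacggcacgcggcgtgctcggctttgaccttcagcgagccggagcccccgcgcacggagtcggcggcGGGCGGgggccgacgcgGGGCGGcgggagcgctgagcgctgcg
A GC box is present in 32.7% of all windows.

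The other receptors of the system differed less. Insr, the insulin receptor gene, rose from 7.67 ± 0.555 (SD, n = 3) to 9.74 ± 0.428 FPKM (SD, n = 4), or by 0.31 on the log2 scale (limma, Benjamini-Hochberg adjusted p 0.0131), a call lost with the replicate number as a block (adjusted p 0.0756). Igf2r, whose product clears IGF-II by taking it to lysosomes, fell from 20.1 ± 2.01 to 16.0 ± 0.877 FPKM, a log2 difference of -0.31 (adjusted p 0.0211), and this call was lost in 5 of 19 alternatives. The ratio of Igf2r to Igf1r was 2.88 to 3.13 in controls and 1.15 to 2.02 in the Foxl2LsL-labelled libraries. The ratio of Igf1r to Insr was 0.811 to 0.898 in controls and 0.887, 1.39, 1.27 and 1.14 in Foxl2LsL-labelled libraries 1 to 4, where library 1 lay within the range of the controls.

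Igfbp4 and Igfbp7 were the most abundant members and fell the most in FPKM. Igfbp4 encodes the binding protein whose cleavage by PAPP-A frees IGF-I, and lies on chromosome 11 (99041244 to 99054392, plus strand). It was at 249, 374 and 446 FPKM in controls 1, 2 and 4 and at 127, 128, 129 and 142 FPKM in Foxl2LsL-labelled libraries 1 to 4. The second group was tight, with a coefficient of variation of 5.32% against 27.9% in controls, and lay wholly below them. The mean fell from 356 ± 99.4 (SD, n = 3) to 132 ± 6.998 FPKM (SD, n = 4), with a log2 difference of -1.39 (SE 0.18, 95% interval -1.81 to -0.97; limma, Benjamini-Hochberg adjusted p 0.00128; two-sided exact permutation p 0.0571).

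Igfbp7, on chromosome 5 (77349240 to 77408041, minus strand), encodes the low-affinity relative, a secreted protein of vessels and stroma. On the opposite strand it is overlapped by the antisense gene Gm34648 over 7085 bases and by Polr2b over 85 bases, and here too the use of strand in counting is unknown. Its values were 267, 342 and 470 FPKM in controls 1, 2 and 4 and 160, 149, 166 and 178 FPKM in Foxl2LsL-labelled libraries 1 to 4. Again control 4 was highest and control 1 lowest, and even control 1 lay above the whole other group. The mean fell from 360 ± 103 (SD, n = 3) to 163 ± 11.9 FPKM (SD, n = 4), with a log2 difference of -1.10 (SE 0.18; limma, Benjamini-Hochberg adjusted p 0.00275). Both Igfbp4 and Igfbp7 kept their calls under all 19 alternatives, at -1.63 to -1.21 and -1.29 to -0.89 on the log2 scale. The ratio of Igfbp4 to Igfbp7 was 0.933, 1.10 and 0.947 in controls and 0.778 to 0.858 in the Foxl2LsL-labelled libraries.

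Endothelial markers are given beside Igfbp7. Of 7 markers, 4 were lower (Pecam1, Cdh5, Kdr and Emcn) and 2 higher (Vwf and Cldn5) past the threshold. That share of 85.7% compares with 40.6% of all tested genes. None of the markers was at 0, and their summed level was 115 to 149 FPKM in controls and 96.0 to 111.5 FPKM in the other group. Their part in the fall of Igfbp7 was not tested.

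The windows before Igfbp4 (chr11:99040994-99041243, GRCm38.p6, plus strand) and Igfbp7 (chr5:77408046-77408295, minus strand) are shown as the promoters of the pair of abundant genes that fell together. Capitals mark matches on either strand to any of 4 motifs, none overlapping another in these windows. The TATA box was searched as TATAAA. For the GC box the letters GGGCGG were used again. The CCAAT box has its own name as its letters. The forkhead core, of the kind that FOX proteins bind, was searched as TGTTTAC.
Igfbp4: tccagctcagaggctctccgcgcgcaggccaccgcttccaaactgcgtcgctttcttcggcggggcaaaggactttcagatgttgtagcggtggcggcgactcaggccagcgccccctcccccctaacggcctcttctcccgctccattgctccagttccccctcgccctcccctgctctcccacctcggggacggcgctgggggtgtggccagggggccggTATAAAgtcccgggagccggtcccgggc
Igfbp7: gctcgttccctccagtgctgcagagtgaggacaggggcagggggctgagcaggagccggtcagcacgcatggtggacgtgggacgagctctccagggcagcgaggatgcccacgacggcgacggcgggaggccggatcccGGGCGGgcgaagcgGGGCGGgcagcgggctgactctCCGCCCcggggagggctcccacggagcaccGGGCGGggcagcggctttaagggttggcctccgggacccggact
Both are rich in G and C, at 69.2% with 22 CpG and 74.0% with 26 CpG, but their marked letters differ. Igfbp4 has a TATA box 28 bases before its start and no GC box, and Igfbp7 has 4 GC boxes, at 110, 96, 74 and 44 bases before its start, and no TATA box. A TATA box stands in 12.4% of all windows, a CCAAT box in 33.8%. The forkhead core was found in 0 of the 14 windows of the 10 members, beside 3.17% of all windows, which says only that these letters are not in these 250 bases.

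Igfbp2 and Igfbp6 were the other binding protein genes that fell. Igfbp2 (chromosome 1, 72824503 to 72852474, plus strand), whose protein binds IGF-II strongly and carries an integrin-binding motif, was at 2.49, 3.43 and 1.94 FPKM in controls 1, 2 and 4. Foxl2LsL-labelled libraries 1 to 4 had 1.05, 0.444, 0.467 and 1.02 FPKM, where libraries 2 and 3 were the lowest. The mean was 2.62 ± 0.752 (SD, n = 3) against 0.745 ± 0.334 FPKM (SD, n = 4), a ratio of 0.285. At this level the pseudocount matters: the log2 difference was -1.05 with a pseudocount of 1 (SE 0.20; limma, Benjamini-Hochberg adjusted p 0.00487), -1.74 with 0.1 and -1.85 on recovered fragments. The call was lost only with the replicate number as a block, where the adjusted p was 0.0520 (limma, Benjamini-Hochberg).

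Igfbp6 (chromosome 15, 102144362 to 102149511, plus strand), which prefers IGF-II to IGF-I, changed the least of the members past the threshold. Controls 1, 2 and 4 had 108, 122 and 143 FPKM, and Foxl2LsL-labelled libraries 1 to 4 had 88.3, 87.2, 90.3 and 107 FPKM. The highest of the second group, library 4 at 107.3 FPKM, lay just under the lowest control at 107.7 FPKM. On the log2 scale the difference was -0.41 (SE 0.12; Benjamini-Hochberg adjusted p 0.0277 in limma; two-sided exact permutation p 0.0571). This call was lost in 5 of the 7 fits with 1 library left out, with adjusted p up to 0.0738, and after median centring.

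Igfbp3 and Igfbp5, which carry a heparin-binding stretch that holds them to the cell surface and matrix, showed no difference beyond the replicate spread. Igfbp3 (chromosome 11, 7206086 to 7213923, minus strand) was at 44.6, 64.9 and 40.5 FPKM in controls 1, 2 and 4 and at 28.4, 70.5, 60.4 and 32.9 FPKM in Foxl2LsL-labelled libraries 1 to 4. Its Foxl2LsL-labelled libraries thus fell apart, with 2 and 3 above and 1 and 4 below most controls. The log2 difference was -0.13 (95% interval -0.90 to 0.65; limma, Benjamini-Hochberg adjusted p 0.784), an interval that admits a change of either sign.

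The same libraries 2 and 3 had the lower values of Igfbp2 and the highest values of Igf1r. They also held the most signal of fat cell markers: the summed level of Adipoq, Plin1, Cidec, Lep and Fabp4 was 67.9 and 130 FPKM there, against 1.44 and 8.91 FPKM in libraries 1 and 4. In controls 1, 2 and 4 that sum was 0.340, 4.04 and 49.2 FPKM, and control 4 had the lowest Igfbp3 of the controls. Of the 5 markers, 4 were tested and 0 passed the threshold, and Adipoq, Cidec and Lep were at 0 in control 1. The part of adipose tissue in these values was not tested.

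Igfbp5 (chromosome 1, 72857932 to 72874884, minus strand) was at 42.2, 91.7 and 111 FPKM in controls 1, 2 and 4 and at 74.7, 71.5, 70.7 and 93.6 FPKM in Foxl2LsL-labelled libraries 1 to 4. All 4 lay between the lowest and the highest control. The log2 difference was 0.03 (95% interval -0.67 to 0.73; limma, Benjamini-Hochberg adjusted p 0.944) and changed sign with the control left out, at -0.38 without control 1 and 0.30 without control 4. Igfbp5 lies 5457 bases from Igfbp2 on chromosome 1, and the genes face each other. Igfbp1 and Igfbp3 lie likewise on chromosome 11, 3539 bases apart.

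Igfbp1 (chromosome 11, 7197782 to 7202546, plus strand), the decidual and hepatic binding protein gene, was at the limit of detection. Controls 1, 2 and 4 held 1, 4 and 1 fragments, and the Foxl2LsL-labelled libraries held 0 each. A count of 0 allows up to 3 fragments, which is 0.0301 to 0.0413 FPKM in those 4 libraries, so no difference was detectable at this depth and no fold is given.

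**Figure D2:**
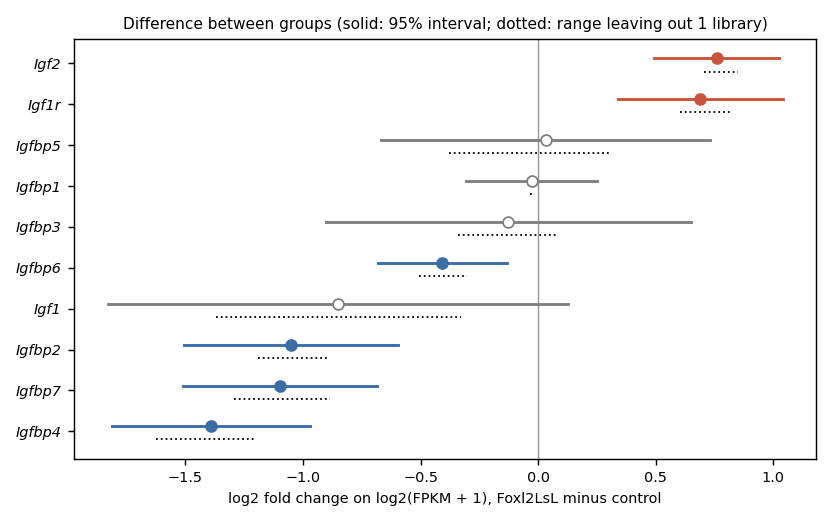
Log2 fold change of each gene on the log2(FPKM + 1) scale, Foxl2LsL-labelled minus control, with the 95% interval of the limma fit (solid) and the range over the 7 fits with 1 library left out (dotted); filled points passed an adjusted p of 0.05. Igfbp4, at -1.39, and Igf2, at 0.76, are the extremes, and the dotted ranges of Igfbp3 and Igfbp5 cross 0.

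Ordered by level, which FPKM allows since it is per length, the members ran alike in both groups at the top: Igfbp7, Igfbp4, Igfbp6, Igfbp5, Igfbp3 and Igf1. In controls the ranges of Igfbp7 and Igfbp4 overlapped, as did those of each neighbouring pair from Igfbp6 down to Igf1. Below them came Igf1r, Igfbp2, Igf2 and Igfbp1, each apart from the next. In the Foxl2LsL-labelled libraries Igf1 and Igf1r stood level, at 11.5 ± 1.76 and 11.4 ± 2.27 FPKM (SD, n = 4), with Igf1 above Igf1r in 2 of 4 libraries. Igf2 stood above Igfbp2 there in all 4 libraries, where in the 3 controls it stood below.

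The make-up of the binding protein transcripts differed with these changes. The summed FPKM of Igfbp1 to Igfbp6 was 446, 657 and 742 in controls 1, 2 and 4 and 320 to 377 in the Foxl2LsL-labelled libraries. Igfbp4 supplied 57.6% ± 2.17 (SD, n = 3) of that sum in controls and 37.5% ± 1.71 (SD, n = 4) in the other group. The share of Igfbp5 was 12.8% ± 2.91 and 22.1% ± 2.41 and that of Igfbp6 20.7% ± 2.997 and 26.6% ± 1.85, while the FPKM of neither was higher past the threshold. The share of Igfbp3 overlapped, at 5.46% to 9.996% and 8.72% to 19.7%. That of Igfbp2 overlapped too, at 0.261% to 0.557% in controls (0.447% ± 0.162) and 0.124% to 0.327% in the other group (0.214% ± 0.101). Per unit of ligand transcript, the binding protein sum overlapped between the groups, at 15.8 to 40.6 in controls and 19.4 to 29.2 in the other group.

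**Figure D3:**
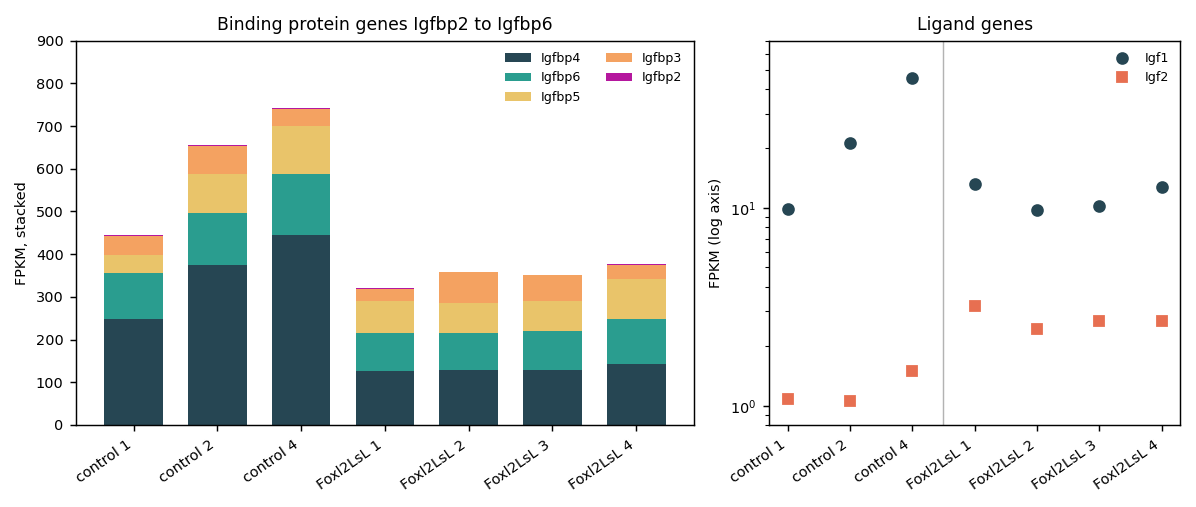
Left, stacked FPKM of Igfbp2 to Igfbp6 in each library from 0 (Igfbp1 is too low to show); right, FPKM of Igf1 and Igf2 in each library on a log axis. The binding protein stack is 446 to 742 FPKM high in controls and 320 to 377 FPKM in the Foxl2LsL-labelled libraries, and Igf2 is higher in each of the latter than in any control.

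Other genes of the pathway were read from 6 lists with 61 genes in all. Of these, 52 were tested, and 19 were higher and 11 lower past the threshold (limma, Benjamini-Hochberg adjusted p under 0.05), with a median log2 fold change of 0.15. That share of 57.7% compares with 40.6% of all tested genes. The pathway count was 19 without control 2 and 19 without Foxl2LsL-labelled library 3. The count of all genes past the threshold fell as well, from 5408 of 13335 to 3976 without that library 3. Over the 7 fits with 1 library left out it was 3855 to 5325.

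The inputs from growth hormone and steroids moved mostly up. Of 8 genes, 5 rose and 0 fell, a share of 62.5%. Over all tested genes, 16.7% were called higher and 40.6% in either direction. Ghr, the growth hormone receptor gene, rose from 7.003 ± 0.756 (SD, n = 3) to 14.2 ± 2.06 FPKM (SD, n = 4), or by 0.92 on the log2 scale (limma, Benjamini-Hochberg adjusted p 0.00136). Stat5a, the transcription factor gene downstream of that receptor, rose by 1.03 on the log2 scale and Cish, a STAT5-induced inhibitor gene, by 0.83 (adjusted p 0.00263 and 0.00399). Jak2 and Socs2 of the same list, named after their values were seen, did not pass. Their log2 differences were 0.16 and 0.14 (limma, Benjamini-Hochberg adjusted p 0.349 and 0.605). Stat5b, named after its value was seen, and Esr1, the estrogen receptor gene, rose by 0.57 and 0.55. Pgr, which carries the Cre allele, was at 33.5 ± 7.56 and 25.4 ± 1.14 FPKM and did not pass (adjusted p 0.0845, limma, Benjamini-Hochberg), but passed without control 4 and with array weights.

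Among adaptors, Grb10, an imprinted gene whose product restrains the insulin and IGF receptors, fell from 35.2 ± 4.86 (SD, n = 3) to 15.3 ± 1.69 FPKM (SD, n = 4). Its log2 difference came to -1.15 (SE 0.12; Benjamini-Hochberg adjusted p 0.000552 in limma), and the call held under all 19 alternatives. The related adaptor gene Grb14, named after its value was seen, went the other way. It was higher by 0.23 on the log2 scale (limma, Benjamini-Hochberg adjusted p 0.0426). In the list of 10 receptors and adaptors 8 were tested, with 2 higher and 2 lower. That share of 50% compares with 40.6% of all tested genes. Irs1, the IRS adaptor gene with the highest level and named after its values were seen, was at 17.98 to 30.35 FPKM and 26.3 to 38.2 FPKM and did not pass (adjusted p 0.149, limma, Benjamini-Hochberg).

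In the PI3K and AKT arm, 4 of 19 genes were higher and 3 lower, a share of 36.8% beside 40.6% of all tested genes. The median log2 fold change without sign was 0.19 in the arm and 0.27 over all tested genes. Pik3r1, the gene of the regulatory subunit p85 alpha, was 23.3, 23.4 and 26.0 FPKM in controls 1, 2 and 4 and 47.17, 51.01, 51.18 and 52.62 FPKM in Foxl2LsL-labelled libraries 1 to 4. On the log2 scale the difference was 1.03 (SE 0.07; Benjamini-Hochberg adjusted p 0.000159 in limma), the smallest adjusted p of the 52 tested pathway genes. Mtor, the kinase of the growth complexes, and Akt1 fell by 0.44 and 0.33 on the log2 scale (adjusted p 0.0184 and 0.0186). The call of Mtor was lost with the replicate number as a block (adjusted p 0.0528) and that of Akt1 in 4 of 19 alternatives. The other 12 genes of the arm did not pass.

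Among genes for release of IGFs from their binding proteins, 3 of 9 tested genes rose and 4 fell. That share of 77.8% compares with 40.6% of all tested genes. Ctsd, a lysosomal protease gene, was at 468, 396 and 1623 FPKM in controls 1, 2 and 4 and at 165 to 217 FPKM in the other group (log2 difference -1.79; limma, Benjamini-Hochberg adjusted p 0.0156), and without control 4 the difference was -1.15. Adam28, whose protease cuts IGFBP-3, rose from 1.47 ± 0.712 to 6.18 ± 1.38 FPKM (log2 difference 1.56, adjusted p 0.00217). Adam12, another IGFBP protease gene, fell by 1.27 on the log2 scale (adjusted p 0.0392), a call lost in 9 of 19 alternatives. Chosen after their values were seen, Htra1 fell by 0.90 and Stc2, whose product inhibits PAPP-A, rose by 1.03 on the log2 scale (limma, Benjamini-Hochberg adjusted p 0.00208 and 0.0146). Pappa itself, likewise picked afterwards, was at 0.895, 1.72 and 2.62 FPKM in controls 1, 2 and 4 and at 0.639 to 1.05 FPKM in the other group, and did not pass (adjusted p 0.0792).

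The secreted proteins that share the IGFBP-like domain moved both ways, with 3 of 6 tested genes higher and 2 lower. That share of 83.3% compares with 40.6% of all tested genes. The table lists the CCN genes under their older symbols. Nov (CCN3) rose from 2.07 ± 0.328 (SD, n = 3) to 6.65 ± 1.55 FPKM (SD, n = 4), Ctgf (CCN2) from 8.62 ± 1.04 to 17.1 ± 2.08 FPKM and Kazald1 from 1.49 ± 0.278 to 3.09 ± 0.144 FPKM. Their log2 differences were 1.30, 0.91 and 0.72 (limma, Benjamini-Hochberg adjusted p 0.00114, 0.00128 and 0.00176). The 2 that fell, named after their values were seen, were the CCN gene Cyr61 and Esm1. Their log2 differences were -0.51 and -0.61 (limma, Benjamini-Hochberg adjusted p 0.0137 and 0.0347).

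**Figure D4:**
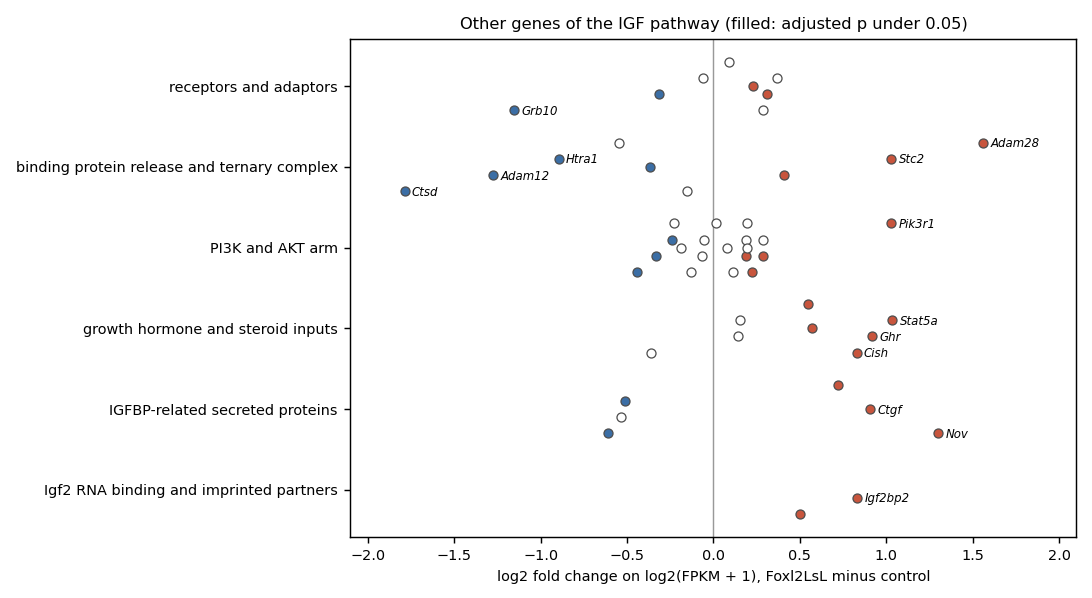
Log2 fold change of the 52 tested genes of 6 IGF pathway lists, 1 point per gene on the log2(FPKM + 1) scale, Foxl2LsL-labelled minus control; filled points passed an adjusted p of 0.05 and those beyond 0.8 are named. Ctsd, at -1.79, and Adam28, at 1.56, are the extremes, and the growth hormone and steroid inputs have 5 filled points to the right and 0 to the left.

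The genes most alike to Igf2 and Igfbp4 over the 7 libraries were searched among 9469 others with a mean of at least 5 FPKM, by Pearson's r of log2(FPKM + 1). For Igfbp4 these were Vwa1, a matrix protein gene (r = 0.999), Wdr74 (r = 0.998) and the homeobox gene Hoxd11 (r = 0.996). Hoxd11 was at 11.7, 17.8 and 24.5 FPKM in controls 1, 2 and 4 and at 3.98 to 4.66 FPKM in the other group, and so shared with Igfbp4 both the gap between groups and the order of the controls. For Igf2 they were Cbr2, a carbonyl reductase gene (r = 0.992), Dirc2 (r = 0.991) and Tmem59 (r = 0.991). Cbr2 was at 83.9 to 162 FPKM in controls and at 642 to 1365 FPKM in the Foxl2LsL-labelled libraries. These r values are descriptions over points that include the group difference, and genes with any large difference reach high values.

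Markers of growth state and of other cell types are given for all members. All 6 proliferation markers, Mki67 and Top2a among them, were lower past the threshold, beside 23.9% of all tested genes. Their summed level was 73.8 to 176 FPKM in controls and 9.84 to 28.6 FPKM in the other group. Uterine gland markers summed to 26.9 to 45.8 and 4.86 to 7.27 FPKM. Of 3 tested, 2 were lower (Foxa2 and Cxcl15), a share of 66.7% beside 23.9% of all tested genes called lower. Most of the control sum was Cxcl15, at 21.9 to 31.4 FPKM. Wfdc3 was at 7.84 FPKM in control 4 against 0.442 and 0.598 FPKM in controls 1 and 2. Prss28 and Prss29 stayed at or below 0.168 FPKM, and Prss29 was at 0 in control 1. Sums of smooth muscle markers overlapped between the groups, at 896 to 1736 and 1573 to 2010 FPKM. Of these 8 markers, 3 were higher and 0 lower past the threshold, a share of 37.5%. Over all tested genes, 16.7% were called higher and 40.6% in either direction. The median log2 fold change was 0.54 over the smooth muscle markers and -0.05 over all tested genes. Sums of luminal epithelium overlapped too, at 764.5 to 1369 and 1056 to 1472 FPKM, with 1 of 8 higher and 0 lower (12.5%). Leukocyte markers summed to 16.5 to 24.2 and 25.2 to 46.3 FPKM. Of 5 tested, 2 were higher (Csf1r and Itgam) and 0 lower. That share of 40% compares with 16.7% of all tested genes called higher and 40.6% called in either direction. Itgam was at 12.18 and 17.97 FPKM in Foxl2LsL-labelled libraries 1 and 4, and without it, a choice made after seeing the data, the sums overlapped, at 14.9 to 22.2 and 20.98 to 28.4 FPKM. Mesothelium markers summed to 75.6 to 125.8 and 39.8 to 98.7 FPKM. Of 4 tested, 1 was lower (Wt1) and 0 higher, a share of 25% beside 23.9% of all tested genes called lower. The part of these markers in the levels of the IGF genes was not tested.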

How the data were processed

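RNA from whole uterus was sequenced in 7 libraries, extracted with TRIzol per the labels' protocols. The authors deposited 1 table of FPKM values, with the gene length in bases per the file headers. STAR 2.5.2b, featureCounts 1.5.0-p1, DESeq2 1.12.4 and mm10 are named in the submitters' processing notes, with no role or order; annotation, strand and filters are not given in the sources used here. FPKM is relative to all fragments of a library, so strong rises lower other values.

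FPKM times length fell on whole multiples of 1 step per library (100% of 1326 to 1467 low values within 0.1), which gave the depth and fragments. Floors cover counting error only, whereas the intervals come from the limma fit and reflect the spread between libraries. Genes whose mean reached 1 FPKM, with the 10 members (9 of which reached it) and Foxl2, were compared on log2(FPKM + 1) with limma 3.58.1 in R 4.3.3 (intensity trend, all 7 libraries, no block), with Benjamini-Hochberg adjustment over 13335 genes; folds on this scale understate changes of low genes. Single genes also got a two-sided exact permutation test over 35 splits, which cannot pass 0.05. The limma step was tested on simulated data. Nothing in the labels says that libraries come from separate animals, so p-values measure the spread between these samples.

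Named genes are the 10 members, Foxl2, Esr1, Pgr, Ghr, Insr and Igf2r, up to 3 genes past the threshold with the largest change per pathway list, and the 3 genes most alike to the members with the largest rise and fall. Markers are named as values only. The members and lists were chosen with earlier results of these data known. Positions come from GENCODE M21 (GRCm38); promoter windows come from RefSeq (GRCm38.p6), where all 10 members matched by symbol, with 14 windows. In 10 of 14 the bases after the start lay in a GENCODE transcript of the gene in the same orientation, and in 0 in the reverse. Alternatives covered scaling, pseudocount, filter, variance model, weights, limma-voom on recovered fragments, the replicate block and leaving out each library. Figures used Python 3.11.15 and matplotlib 3.10.9.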

Additional observations from a re-analysis of the deposited data

Results flagged for a closer look

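Single libraries stood apart within the 4 Foxl2LsL-labelled libraries for 3 of the 36 named genes, always library 4. The gap to the nearest other library took up more of the group's range than Dixon's critical value for 4 samples. Chance gives such a gap in about 1 of 20 groups. Igfbp4 was at 142 FPKM there against 127 to 129 FPKM in the others, Igfbp6 at 107 FPKM against 87.2 to 90.3 FPKM, and Vwa1 at 5.39 FPKM against 4.77 to 4.85 FPKM. Without that library the log2 difference of Igfbp4 was -1.43 and that of Igfbp6 was -0.48. Vwa1 was named only for its likeness to Igfbp4 over these same libraries, so its gap is not a separate case.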

How the results depend on the processing

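Under 19 alternatives, 18 of them distinct, the number of members past the threshold was 4 to 7, against 6. It was 4 with the replicate block, where Igf1r and Igfbp2 lost their calls, and 5 to 7 when 1 library was left out. Igf2, Igfbp4 and Igfbp7 kept direction and call throughout. Igfbp6 lost its call in 7 alternatives. Igf1 passed without control 1 and with array weights, and Igfbp1 passed only with limma-voom on 6 control fragments against 0.

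The count of all genes past the threshold was 5408; it was 3241 with the replicate block and 3855 to 5325 leaving out a library. Of the pathway genes 30 passed; the count was 14 with the replicate block, 19 on libraries 1, 2 and 4 without it, and 19 to 26 leaving out a library. Deviations of same-numbered libraries correlated at 0.228, -0.0588 and -0.0587 for numbers 1, 2 and 4. Of the 3 numbers, 1 correlated best with itself in both directions. With so few libraries per group these values cannot show whether the numbers pair the samples.

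Direction changed only for genes without a call. On the log2 scale Igfbp1 was 0.0237 with median centring. Leaving out 1 library gave -0.343 to 0.0841 for Igfbp3, -0.381 to 0.304 for Igfbp5 and -0.0999 to 0.275 for Foxl2. With array weights Igfbp5 was -0.0202 and Foxl2 was -0.15. The cause was not tested. Among the 30 named genes past the threshold, 20 kept their calls in all alternatives where they were tested, 10 lost theirs in at least 1, and 0 reversed. Depth limits only Igfbp1.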
